A study of Mus musculus with 8 samples.

Results

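The genes described here encode enzymes of 4 detoxification families: the aldo-keto reductases, the aldehyde dehydrogenases, the cytosolic glutathione transferases and the cytosolic sulfotransferases. They were chosen by a rule on gene names, set with earlier results of these data known, as genes whose symbol begins with Akr and a digit from 1 to 7, Aldh, Gst with a class letter, or Sult, and which had a probe set naming no other gene. This gave 73 of the 22180 genes with a probe set of their own: 14 aldo-keto reductases, 21 aldehyde dehydrogenases, 17 glutathione transferases and 21 sulfotransferases. Where a gene had several such probe sets, the probe set with the highest mean over the 8 arrays stood for it.

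Expression was measured in brain endothelial cells (BECs) of male FVB/NJ mice aged 12 weeks, on Affymetrix Mouse Gene 2.0 ST arrays. In the 4 SAH mice, 80 μL of blood was injected in front of the optic chiasm through a burr hole to model subarachnoid haemorrhage (SAH), and in the 4 Sham mice a needle was inserted with no blood injection. Both groups had the same isoflurane anaesthesia for surgery and ketamine and xylazine before perfusion, and no mouse was left without surgery. The comparison is therefore of the blood injection and not of the burr hole or needle. No group received another fluid, so effects of the blood and of the injected volume cannot be told apart. BECs were taken 24 h later from left cerebral hemispheres as CD45-CD31+ cells by magnetic beads, and each array held RNA of 1 mouse without pooling. The values are log2 intensities after robust multi-array average (RMA) normalization, and each change is the mean of the SAH arrays less that of the Sham arrays, on that scale. A probe set's intensity depends on its own probes, so levels were compared between arrays and not between genes.

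Aldo-keto reductases use NADPH to reduce aldehydes and ketones, including steroids, sugars and products of lipid peroxidation, to alcohols. Aldehyde dehydrogenases oxidize aldehydes to carboxylic acids, glutathione transferases couple electrophiles to glutathione, and sulfotransferases attach sulfate to phenols, steroids and amines. In brain capillaries such enzymes form a metabolic layer of the blood–brain barrier, beside its junctions and transporters, and many of them handle reactive aldehydes such as 4-hydroxynonenal.

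Of the 73 genes, 6 were lower and 0 were higher after SAH by the moderated test of limma at an adjusted p under 0.05 over the 25341 probe sets with a gene symbol. The lower genes were Akr1c14, Akr1e1, Aldh1a1, Gstm1, Gstm7 and Gsta4, and no sulfotransferase was among them. They make up 8.22% of the family members, where 1.28% of all tested probe sets were lower and 1.9% were higher (3.18% in either direction). At an unadjusted p under 0.05 there were 16 members below 0 and 1 above, together 23.3% of the members, where 14.1% of all tested probe sets had such a p. Leaving out 1 array lowered the count of 6 to 2 without SAH replicate 1, SAH replicate 3 or Sham replicate 2 and to 3 without Sham replicate 1, 3 or 4, and Akr1c14 and Gstm1 were called in each of the 8 such fits. Over all tested probe sets, lower calls fell from 325 to 170, 166 and 167 without the first 3 of these arrays. Without Sham replicate 1, 3 or 4 they fell to 211, 214 and 237. Changes of the 6 genes ran from -0.60 to -1.88, which is between 66.2% and 27.1% of the Sham level.

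**Figure D1:**
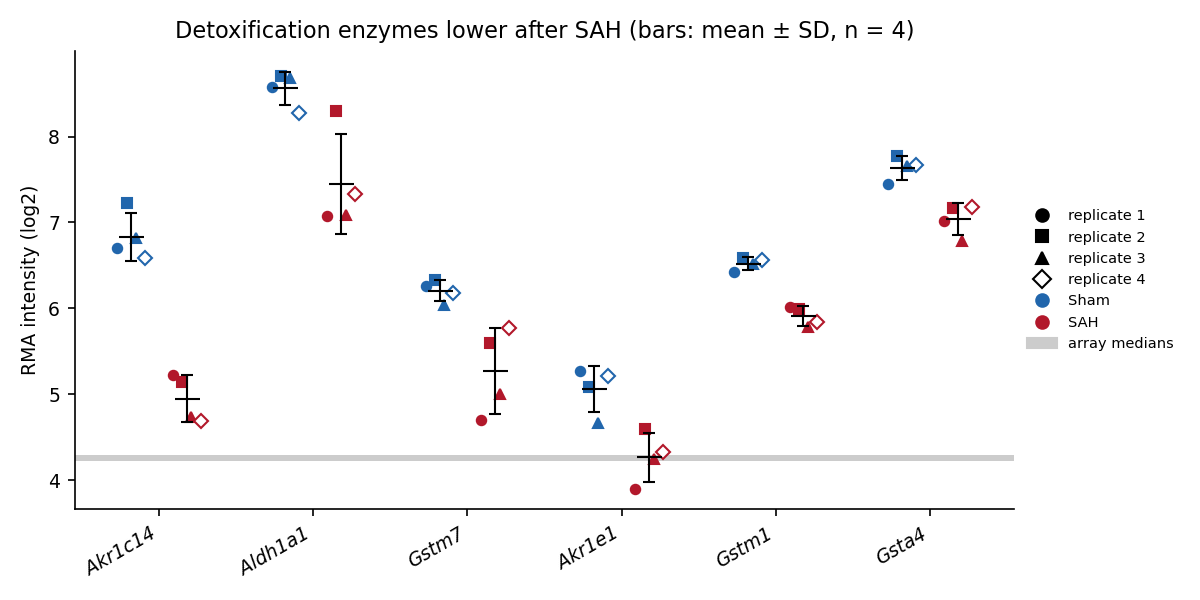
RMA intensity (log2) of the 6 detoxification enzymes lower after SAH, with a symbol for each array, black bars for the mean ± SD of 4 arrays, and a grey band for the medians of the 8 arrays. Heights of different genes are not comparable. The groups overlap in Aldh1a1, where SAH replicate 2 (8.30) lies above Sham replicate 4 (8.28), and in the other 5 genes every SAH array lies below every Sham array.

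Akr1c14, a 3-alpha-hydroxysteroid dehydrogenase that reduces the ketones of dihydrotestosterone and dihydroprogesterone, changed most. Its probe set (17284919) read 5.23, 5.14, 4.74 and 4.69 in the SAH arrays and 6.70, 7.22, 6.82 and 6.58 in the Sham arrays. The lowest Sham array stood more than 1 log2 unit above the highest SAH array, so the groups were far apart. The change was -1.88 (SE 0.17, adjusted p = 0.000243), or 3.69-fold lower, and it was called with each of the 8 arrays left out in turn, at -1.98 to -1.75. The numbered Akr1c genes, which encode steroid dehydrogenases and relatives, lie on chromosome 13. Of the 7 that were measured, 6 lay below every array's median in both groups, and Akr1c14 was the exception.

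Akr1e1, which in mice encodes a reductase of 1,5-anhydrofructose and also lies on chromosome 13, was dimmer on the array (probe set 17290301). It read 3.90, 4.60, 4.24 and 4.33 after SAH and 5.28, 5.09, 4.67 and 5.21 in Sham, so the closest arrays of the groups, SAH replicate 2 and Sham replicate 3, were 4.60 and 4.67. The change was -0.79 (SE 0.17, adjusted p = 0.0293). With 1 array left out it stayed between -0.92 and -0.67, but the call was kept in only 2 of the 8 fits, those without SAH replicate 2 (the highest SAH array) or Sham replicate 3 (the lowest Sham array), with adjusted p up to 0.0811 in the others. Akr1a1, the general aldehyde reductase, which in mice also serves ascorbate synthesis, read 9.56 ± 0.13 (SD, n = 4) after SAH and 9.75 ± 0.15 in Sham. Its change of -0.19 (95% interval -0.44 to 0.05) did not pass the test (limma adjusted p = 0.497). The remaining aldo-keto reductases had Sham means from 2.14 to 4.93 and changes from -0.32 to 0.17.

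Aldh1a1, which makes retinoic acid from retinaldehyde and also clears lipid aldehydes, had the largest change among the aldehyde dehydrogenases. Probe set 17358103 read 7.08, 8.30, 7.08 and 7.33 after SAH and 8.58, 8.70, 8.68 and 8.28 in Sham. SAH replicate 2 was the array that overlapped the Sham values, and the other 3 SAH arrays lay well below them. The change was -1.11 (SE 0.24, limma adjusted p = 0.0309), or 46.3% of Sham. Without SAH replicate 2 it was -1.40 with an adjusted p of 0.000993, and without Sham replicate 4 it was again called, while in the other 6 left-out fits the adjusted p rose to at most 0.093 and the call was lost.

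Aldh2, the mitochondrial enzyme for acetaldehyde and 4-hydroxynonenal, showed a small difference with no overlap between groups. It read 11.01, 11.17, 10.95 and 11.12 after SAH and 11.35, 11.25, 11.31 and 11.42 in Sham. The change of -0.27 (95% interval -0.48 to -0.05) did not pass the adjustment (limma adjusted p = 0.216), and a second Aldh2 probe set gave -0.29 with overlapping groups. Aldh3a2, the fatty aldehyde dehydrogenase, read 7.88 ± 0.25 (SD, n = 4) after SAH and 8.27 ± 0.28 in Sham, a change of -0.39 that also missed the threshold (limma adjusted p = 0.290).

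Some dimmer members outside the naming rule had groups that did not overlap yet were not called, and these 4 are named after their values were seen. Aldh4a1, which completes proline breakdown, was at 5.16 ± 0.32 (SD, n = 4) after SAH and 5.61 ± 0.10 in Sham. Aldh1a3, another retinaldehyde dehydrogenase, was at 4.21 ± 0.10 and 4.61 ± 0.29, and its rodent relative Aldh1a7 at 3.02 ± 0.16 and 3.42 ± 0.18, with both Aldh1a7 means below the array medians. Akr1d1, the steroid 5-beta-reductase, was lower still on the array (2.61 and 2.93). With Aldh2 and the 5 called genes whose groups were apart, 10 of the 73 members (13.7%) had every SAH array below every Sham array, where 4.47% of all tested probe sets did, and 0 members had the opposite order, where 4.51% of all did.

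The single member with an unadjusted p under 0.05 and a change above 0 was Aldh18a1, which catalyses the first steps of proline synthesis and is also named after its values were seen. It read 4.23, 4.54, 4.75 and 4.08 after SAH and 3.87, 4.18, 4.04 and 4.01 in Sham. The groups overlapped, and the change of 0.38 (SE 0.15) missed the threshold (limma adjusted p = 0.266). Aldh1l1, which is used as an astrocyte marker, lay below the array medians in both groups, at 3.85 ± 0.21 (SD, n = 4) and 3.95 ± 0.11.

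**Figure D2:**
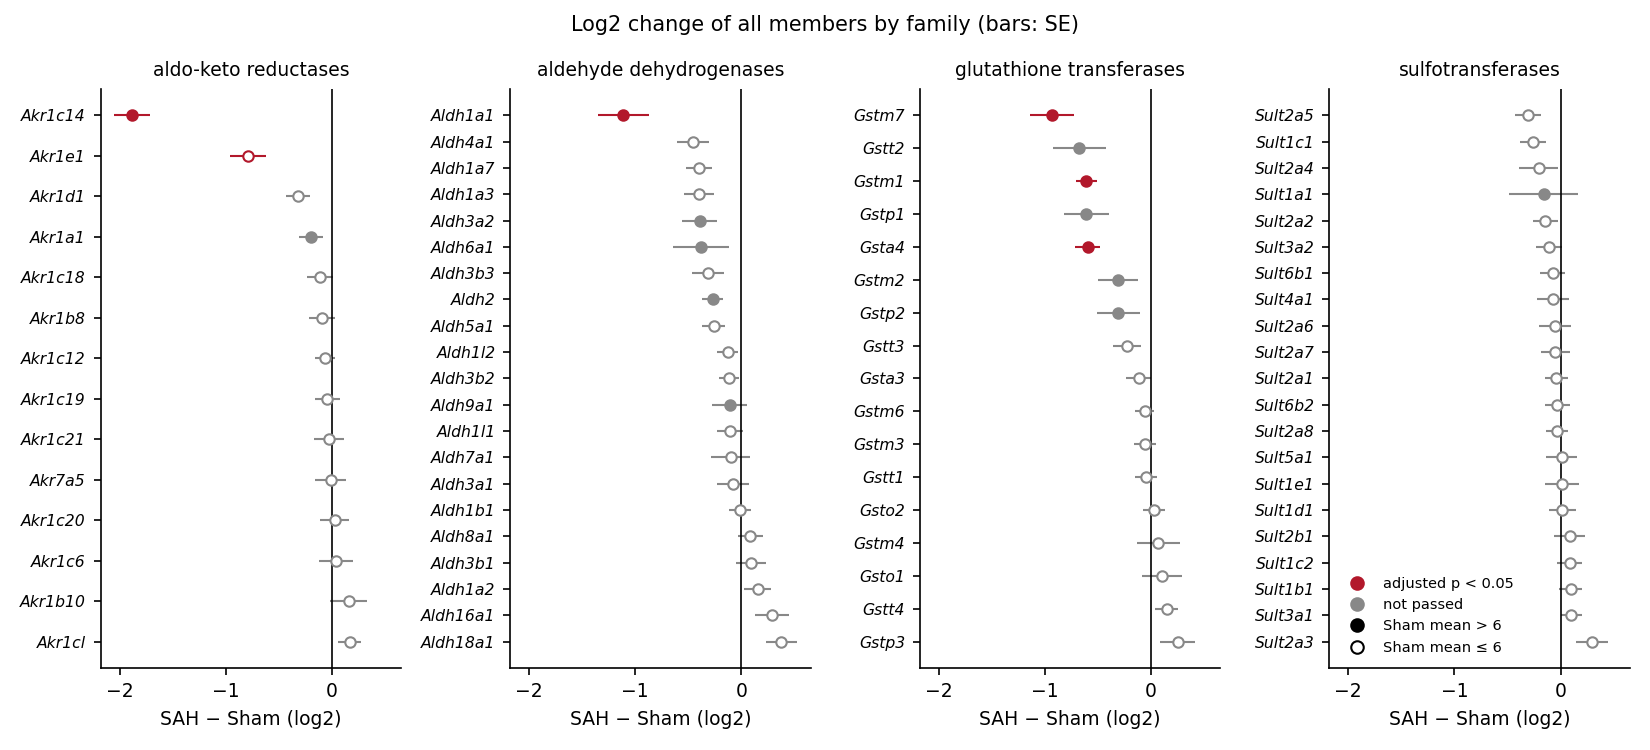
Log2 change (SAH minus Sham, points) with its SE (bars) for all 73 members in 4 panels, 1 for each family, ordered by change from the lowest at the top. Red points passed the adjusted threshold, and filled points had a Sham mean above log2 6. The red points are all to the left of 0, and the 21 sulfotransferases lie between -0.30 and 0.30.

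Among the glutathione transferases, Gstm1, Gstm7 and Gsta4 were lower after SAH. Gstm1, a mu-class enzyme (probe set 17409154), read 6.02, 6.00, 5.78 and 5.85 after SAH and 6.42, 6.58, 6.52 and 6.57 in Sham. The arrays of each group lay within a narrow band, and the bands did not meet. The change was -0.61 (SE 0.10, limma adjusted p = 0.00674), or 65.5% of Sham, and the call held with each array left out.

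Gstm7, a second mu-class enzyme from the same cluster on chromosome 3 (probe set 17409099), read 4.71, 5.60, 5.00 and 5.78 after SAH and 6.26, 6.33, 6.05 and 6.18 in Sham. The Sham arrays were close together and the SAH arrays spread widely below them. The change was -0.93 (SE 0.21, limma adjusted p = 0.0346), or 52.4% of Sham. It stayed between -1.10 and -0.75 with an array left out, but was called in only 2 of the 8 fits, those without SAH replicate 2 or SAH replicate 4, and the adjusted p reached 0.106. Gsta4, the alpha-class enzyme known for conjugating 4-hydroxynonenal (probe set 17519649), read 7.02, 7.17, 6.79 and 7.18 after SAH and 7.45, 7.78, 7.65 and 7.67 in Sham. Its change was -0.60 (SE 0.12, limma adjusted p = 0.0227), and the call was kept without SAH replicate 2, SAH replicate 4 or Sham replicate 1 and lost, at adjusted p up to 0.068, without any of the other 5 arrays.

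Gstp1, a pi-class transferase, had a change of the same size as Gstm1 but a wider spread. It read 9.15, 8.23, 8.46 and 8.56 after SAH and 9.25, 9.68, 8.79 and 9.11 in Sham. SAH replicate 1 lay within the Sham range, and the change of -0.61 (95% interval -1.08 to -0.14) did not pass (limma adjusted p = 0.201). Its near-identical neighbour Gstp2 read 7.70, 6.66, 7.06 and 6.84 after SAH and 7.16, 7.66, 7.29 and 7.38 in Sham, with SAH replicate 1 again the highest SAH array and the change at -0.31 (limma adjusted p = 0.571). A probe set that names both genes changed by -0.30 (limma adjusted p = 0.405).

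Gstt2, a theta-class transferase, read 5.00, 6.23, 5.25 and 5.39 after SAH and 5.90, 6.67, 6.03 and 5.96 in Sham. Replicate 2 was the highest array of both groups. The change of -0.68 (SE 0.25) was not called (limma adjusted p = 0.227), but without SAH replicate 2 it was -0.93 and passed (adjusted p = 0.0287). Sequences within the mu and pi classes are alike enough that probes of 1 member can bind transcripts of another, which the array does not resolve. In all, 8 probe sets naming a gene of these families together with other genes were not used for single genes, among them 1 shared by Gstm5 and a Riken transcript, at -0.55 (limma adjusted p = 0.239).

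Of the 21 sulfotransferases, 20 lay below every array's median in both groups. The exception was Sult1a1, the phenol sulfotransferase, which read 8.35, 8.40, 8.35 and 7.91 after SAH and 8.33, 7.27, 9.11 and 8.93 in Sham. Sham replicate 2 was far below the other Sham arrays, so that the Sham SD was 0.83, and the change of -0.16 (95% interval -0.87 to 0.55) was not called (limma adjusted p = 0.891). Sult5a1 read 3.78 ± 0.20 (SD, n = 4) and 3.77 ± 0.26, and Sult6b2 read 3.18 ± 0.21 and 3.22 ± 0.07, after SAH and in Sham. At these levels the direction of both changed when single arrays were left out, as did that of Sult1a1, whose change then ranged from -0.54 to 0.07.

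The upstream sequences of 4 of the lower genes are shown because they form 2 pairs on the same chromosome, Akr1c14 with Akr1e1 and Gstm1 with Gstm7, so that the stretch before each start can be set beside that of its partner. Each run holds the 250 bases before the most upstream start, 5′ to 3′ in the gene's direction, from RefSeq (GRCm38.p6): Akr1c14 at chr13:4059341-4059590 (plus strand), Akr1e1 at chr13:4609165-4609414 (minus strand), Gstm1 at chr3:108017974-108018223 (minus strand) and Gstm7 at chr3:107931818-107932067 (minus strand).
Akr1c14: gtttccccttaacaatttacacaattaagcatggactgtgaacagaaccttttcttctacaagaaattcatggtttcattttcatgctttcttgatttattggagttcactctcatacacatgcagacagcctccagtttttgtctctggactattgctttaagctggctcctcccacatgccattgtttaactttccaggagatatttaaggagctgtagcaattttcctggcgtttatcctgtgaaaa
Akr1e1: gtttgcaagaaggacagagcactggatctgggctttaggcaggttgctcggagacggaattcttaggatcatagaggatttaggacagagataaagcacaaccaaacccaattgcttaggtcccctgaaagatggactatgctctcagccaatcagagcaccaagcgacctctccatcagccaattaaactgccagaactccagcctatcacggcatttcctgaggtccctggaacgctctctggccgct
Gstm1: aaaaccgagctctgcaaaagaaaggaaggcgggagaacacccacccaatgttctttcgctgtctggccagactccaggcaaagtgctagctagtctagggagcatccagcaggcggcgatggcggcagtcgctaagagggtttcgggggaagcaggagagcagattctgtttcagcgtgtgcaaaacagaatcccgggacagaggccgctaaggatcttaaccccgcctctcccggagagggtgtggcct
Gstm7: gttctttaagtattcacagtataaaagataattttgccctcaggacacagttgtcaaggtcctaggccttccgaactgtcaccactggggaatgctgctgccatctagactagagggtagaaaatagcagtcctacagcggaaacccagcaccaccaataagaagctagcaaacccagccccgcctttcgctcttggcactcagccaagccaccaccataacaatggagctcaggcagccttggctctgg
The core of the antioxidant response element, bound by Nrf2, was searched as TGACNNNGC, and the core of the xenobiotic response element, bound by the aryl hydrocarbon receptor, as TNGCGTG, on both strands of windows from 250 bases before to 50 bases after each start. All 4 runs are in lower case because neither motif occurs in them. In the 60 members with a window, the antioxidant core occurred in 6 (10%), where 14% of 27025 genes held it, and the xenobiotic core in 4 (6.67%), where 5.84% held it. Of the 5 lower genes with a window, 1 held the antioxidant core: Gstm7, 129 bases before its more downstream start, which is beyond the stretch shown. Both shares were close to those of all genes. Gsta4, Aldh2 and Gstt2 had no window.

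Among the 73 genes, 15 had a Sham mean above log2 6, and each of the 15 had a change below 0. Their median change was -0.39, with a range from -1.88 to -0.11. Of the 6902 tested probe sets with a Sham mean above 6, 50.1% were below 0 and the median was -0.00027. Lower calls fell on 5 of the 15, where 3.58% of those probe sets were (4.16% were higher). In 5 of the 15 every SAH array lay below every Sham array, where 8.59% of those probe sets did. A threshold on the Sham mean favours genes that are high in Sham, so these counts are given as a description. Single arrays bore on the 2 smallest changes: Aldh9a1 was above 0 without Sham replicate 1, and Sult1a1 without Sham replicate 3 or 4, and the median then ranged from -0.59 to -0.33. With the mean over 8 arrays in its place, 12 members were above 6, again with every change below 0 and a median of -0.35, where 47.1% of the 6909 tested probe sets with such a mean above 6 were below 0. Just inside the threshold stood Gstt2 at 6.14, and just outside it Aldh3b2 at 5.72.

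**Figure D3:**
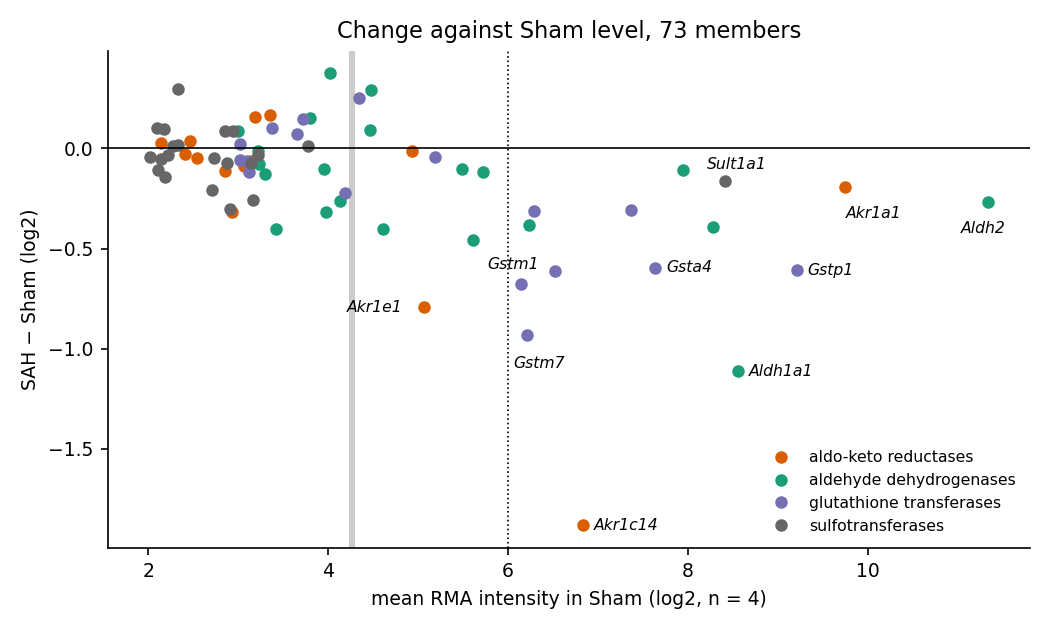
Change (SAH minus Sham, log2) of the 73 members against their mean RMA intensity in the 4 Sham arrays (log2), coloured by family, with the range of the array medians in grey and log2 6 as a dotted line. Right of the dotted line all 15 points are below 0, and left of it points lie on both sides.

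By family, the members above 6 were 7 glutathione transferases with a median of -0.61, 5 aldehyde dehydrogenases with a median of -0.38, 2 aldo-keto reductases and 1 sulfotransferase. All tested probe sets with a Sham mean above 6 had a median of -0.00027. The family medians are a description, since the threshold favours genes that are high in Sham. The 58 members with a Sham mean of 6 or less had a median of -0.05, with 62.1% below 0, where 54.9% of such probe sets were below 0 overall. Of all 73 members, 47 lay below every array's median in both groups. Over all members 69.9% were below 0 and the median was -0.07, where 53.6% of all tested probe sets were below 0 and the median was -0.02. Members that were not called numbered 67, and the interval of their change held 0 in 56. The widest of these intervals, that of Sult1a1, reached 0.715 to each side.

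The mean of the 15 brighter members was 7.17, 7.40, 7.09 and 7.18 in the 4 SAH arrays and 7.69, 7.89, 7.70 and 7.83 in the 4 Sham arrays. The groups did not overlap in this mean, while the mean of all probe sets above the same threshold lay between 7.40 and 7.47 in every array. Sham replicate 2 was the highest Sham array in 9 of the 15 and in 5 of the 6 lower genes, and SAH replicate 2 was the highest SAH array in 7 of the 15 and in 2 of the 6 lower genes, as were SAH replicates 1 and 4 in 2 each. The 15 genes were not chosen without regard to these arrays, since the threshold uses the Sham means, and only 9 members had a SAH mean above 6. The mean of the 15 also includes the 5 genes called lower. Its separation is therefore a description and not a further test.

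**Figure D4:**
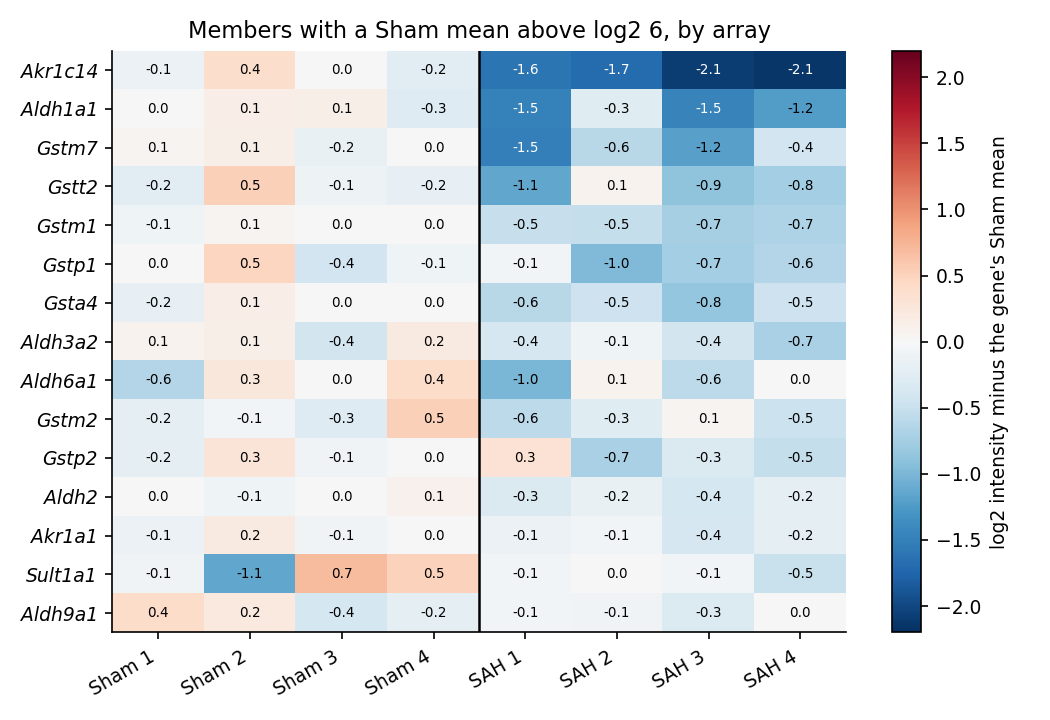
RMA intensity of the 15 members with a Sham mean above log2 6, as the difference from each gene's own Sham mean (log2, colour and number), with the 4 Sham arrays left of the line and the 4 SAH arrays right of it. The SAH side is mostly blue, most deeply in Akr1c14, and the SAH replicate 2 column is paler for Aldh1a1 and Gstt2.

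Other genes of the same pathways were taken from a list of 125, of which 116 were measured. The list was chosen with earlier results of these data known, so its shares are given as a description. Of these, 7 (6.03%) were lower and 4 (3.45%) were higher after SAH (limma), where 1.28% and 1.9% of all tested probe sets were. Of the lower genes, 3 encode oxidases or dehydrogenases: Maob at -1.28 (SE 0.24, adjusted p = 0.0164) and Maoa at -0.49 (adjusted p = 0.0483), the monoamine oxidases whose aldehyde products the families above handle, and Adh1, an alcohol dehydrogenase, at -0.83 (adjusted p = 0.0293). Another 3 belong to the cytochrome P450 list: Ephx1, the microsomal epoxide hydrolase, at -1.12 (SE 0.12, adjusted p = 0.000809), Cyp2e1 at -1.25 (adjusted p = 0.00643) and the flavin monooxygenase Fmo1 at -0.74 (adjusted p = 0.0495). Ephx1 read 7.10 to 7.21 in the SAH arrays and 8.02 to 8.57 in the Sham arrays, with the groups clearly apart. Leaving out an array reduced the 7 lower genes to 3 without SAH replicate 3 and to 4 without SAH replicate 1 or Sham replicate 2, 3 or 4, and raised the 4 higher genes to 7 without SAH replicate 4. Where the lower genes were reduced, lower calls over all tested probe sets fell from 325 to between 166 and 237. Higher calls fell from 482 to 400 without SAH replicate 4.

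The glutathione list had 3 higher genes and 1 lower gene. The prostaglandin E synthase Ptges, a microsomal glutathione-dependent enzyme, rose by 1.34 (SE 0.13, limma adjusted p = 0.000354), the thioredoxin reductase Txnrd1 by 0.68 (adjusted p = 0.0067) and Clic1 by 0.76 (adjusted p = 0.00677). Clic5, which shares the glutathione transferase fold with Clic1, fell by 0.77 (adjusted p = 0.0171). The efflux pump gene Abcb1b rose by 1.13 (adjusted p = 0.0127). None of the 16 measured genes for sulfate supply and other conjugation passed. Nfe2l2, which encodes Nrf2, was at 9.52 ± 0.21 (SD, n = 4) after SAH and 9.13 ± 0.07 in Sham (limma adjusted p = 0.127). It was not called, though every SAH array lay above every Sham array, with the closest at 9.23 and 9.20. The Nrf2 target Nqo1 changed by -0.15 (limma adjusted p = 0.767). In the glutathione list, besides the rise of Txnrd1, Slc7a11 changed by 1.48 (limma adjusted p = 0.271), Gclc by 0.23 and Gclm by -0.11, none of them called. The activity of Nrf2 was not tested.

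**Figure D5:**
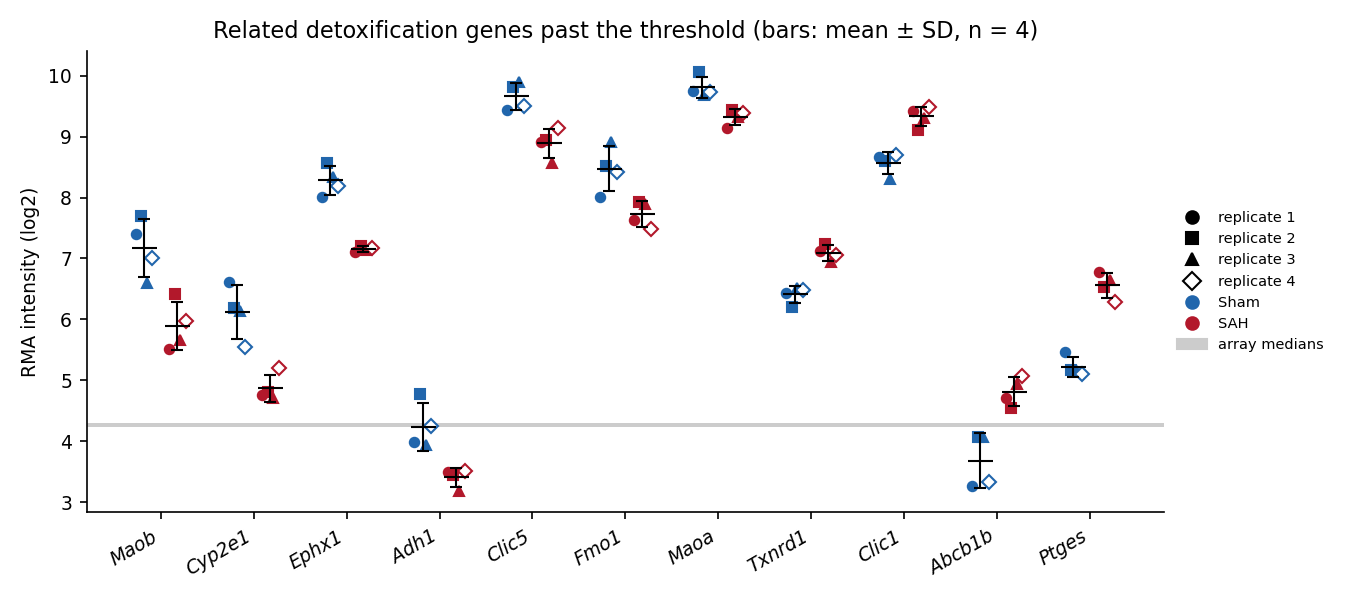
RMA intensity (log2) of the 11 related genes past the adjusted threshold, drawn as for the lower family members, with mean ± SD of 4 arrays in black. The 7 genes from Maob to Maoa are lower after SAH and the 4 from Txnrd1 to Ptges are higher, with no overlap of the groups in any of them.

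All 14 endothelial markers lay above the median of every array in both groups and averaged 10.07 to 10.17 in the SAH arrays and 10.21 to 10.29 in the Sham arrays. Of these, 2 were called lower after SAH, Tek (-0.99) and Kdr (-0.78), and the median change of the list was -0.02. Without being called, Pecam1 (0.37) and Cdh5 (0.22) had every SAH array above every Sham array. Abcb1a (-0.38) and Slco1c1 (-0.25), also not called, had the opposite order. The list of 11 microglia and macrophage markers, of which 1 lay below the array medians in both groups, averaged 5.67 to 6.23 after SAH and 5.18 to 5.50 in Sham, with 2 called higher. Of the neutrophil markers 2 of 6 were higher, averaging 4.16 to 5.04 after SAH and 3.91 to 4.23 in Sham, with 3 below the array medians in both. The 9 pericyte and smooth muscle markers averaged 7.44 to 7.74 and 7.19 to 7.53, with 1 higher, and 1 of 7 fibroblast markers was higher. The 9 astrocyte markers averaged 5.22 to 5.62 and 5.04 to 5.37, with 0 called. The 6 neuronal markers averaged 4.83 to 5.04 after SAH and 5.00 to 5.20 in Sham, and 2 of them lay below the array medians in both groups. Among the neuronal markers only Stmn2 was called, lower after SAH at -1.43 (SE 0.17, limma adjusted p = 0.00146). It read 6.36 to 6.90 in the SAH arrays and 7.66 to 8.45 in the Sham arrays. The other neuronal markers did not fall with it: Snap25 changed by 0.24, Gad1 by 0.21, Slc17a7 by 0.03, Rbfox3 by -0.02 and Syt1 by -0.04. The median change of the neuronal list was 0.0055. The 5 oligodendrocyte markers (3.67 to 3.80 and 3.72 to 3.88) and the 5 of choroid plexus and ependyma (5.60 to 6.09 and 5.38 to 5.68) had 0 called. Some markers of other cell types also had groups apart without being called. Gfap (0.55), C1qb (0.72) and Pdgfrb (0.33) had every SAH array above every Sham array, and Acta2 (-0.41) had the opposite order. The part of these cell types in the lower detoxification genes was not tested. In bulk RNA, fewer cells of a type and less RNA per cell cannot be told apart.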

How the data were processed

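RNA of BECs from 4 SAH and 4 Sham mice was measured, with 1 array per mouse. The authors amplified the RNA with the Ovation Pico system and normalized the intensities by RMA, and the submitters' processing notes name oligo and R 3.2.2. The deposited values are log2 intensities of 41345 probe sets (array medians 4.23 to 4.30, missing values 0). Background correction and quantile normalization are thus those of the authors, and quantile normalization holds the overall distribution equal between arrays, so changes are relative to it. Columns not matched to a sample numbered 0. The number of arrays limits the precision.

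Probe sets were named from the platform annotation: 25341 have a symbol (23521 exactly 1, 1820 several) and 16004 are unnamed here. All 73 family members match a RefSeq entry of the same symbol. The groups come from the sample labels. SAH was compared with Sham by limma 3.58.1 in R 4.3.3 (lmFit, eBayes), adjusting p by Benjamini-Hochberg across those 25341 and calling at 0.05, and the scripts were tested on simulated data. The methods' t-test, an intensity trend, array weights, median centring, cyclic loess, 16 added to linear intensities, all probe sets, filters on dim probe sets, means over a gene's probe sets, replicate blocks and omission of each array were tried as alternatives.

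Members, related genes and markers were chosen with earlier results of these data known. Genes were named by rule: members past the threshold, members not past it with groups apart and a mean above log2 6, the 3 members of each family with the highest Sham mean, members whose call an alternative changed, and related genes past the threshold. Some genes were named outside the rule, among them Aldh1l1, Nfe2l2, Nqo1, Slc7a11, Gclc, Gclm and the members marked as named after their values were seen. The 6 red blood cell markers had no probe set of their own and were not analysed here.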

Additional observations from a re-analysis of the deposited data

Results flagged for a closer look

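In 15 named members, 30 groups of 4 arrays were screened for an array far from the other 3, by a criterion that chance meets in about 5% of groups, and 2 arrays met it. Gstt2 read 6.67 in Sham replicate 2, where the other Sham arrays read 5.90 to 6.03. Sult1a1 read 7.91 in SAH replicate 4, where the other SAH arrays read 8.35 to 8.40.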

How the results depend on the processing

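The count of 6 lower members was within 1.5 times of itself with the intensity trend, array weights, median centring, cyclic loess, the filter at the table median and means over probe sets, which each gave 6 with the same genes. It was 2 with the methods' t-test and 2 with all probe sets tested (Akr1c14 and Gstm1 in both), 3 with 16 added to linear intensities (Akr1c14, Gsta4 and Gstm1), and 3 with the filter at log2 6, which left 12 members and removed Akr1c14, Akr1e1 and Gstm7. Over all tested probe sets, lower calls numbered 325 in the main fit, 36 with that t-test and 117 of 41345 with all probe sets. They numbered 295 with 16 added and 356 of 6909 with the filter at log2 6. With an array left out the count of lower members ranged from 2 to 7, where all lower calls ranged from 166 to 294. Higher members numbered 0 in each of these fits. Of the related genes, 1 was higher and 1 lower with the methods' t-test, 2 were higher with the filter at log2 6, and 2 were lower with all probe sets. Over all tested probe sets, higher calls numbered 482 in the main fit, 50 with that t-test and 498 of 6909 with that filter. With an array left out the higher count of related genes ranged from 4 to 7 (7 without SAH replicate 4) and their lower count from 3 to 5. With the SAH mean in place of the Sham mean, 9 members were above 6.

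The supplement states that an SAH and a Sham hemisphere were typically processed on the same day, but the labels do not give the day. Same-numbered arrays did not deviate together (r from -0.06 to 0.03), so the numbers are not taken as pairs. A pairing by day could not be fitted. A replicate block by title number gave 7 lower members, adding Gstt2 (limma adjusted p = 0.0242). A replicate block by description number gave 3 lower members (Akr1c14, Akr1e1 and Aldh1a1) and 2 lower related genes. That fit kept only arrays whose number occurs in both groups, so SAH replicate 2 and Sham replicate 3 were left out of it. Without replicate 4 of both groups, chosen after seeing the data, 2 members (Akr1c14 and Gstm7) and 3 related genes were lower. Lower calls over all tested probe sets numbered 235 with the title block, 113 with the description block and 158 without replicate 4 of both groups. The changes of 3 sulfotransferases, near 0, turned sign: Sult1a1 was 0.025 with the description block and 0.12 without replicate 4 of both groups (-0.54 to 0.074 with an array left out), Sult5a1 was -0.015 without replicate 4 of both groups (-0.10 to 0.11), and Sult6b2 was 0.020 and 0.062 in the same fits as Sult1a1 (-0.12 to 0.047). The cause of these shifts was not tested.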
